A study of Mus musculus with 10 samples.

Results

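Fatty acid and sterol metabolism was followed through 40 genes, taken by symbol from the 54838 genes in the count table of all 10 libraries. By role, 14 of them serve fatty acid uptake and storage, 8 fatty acid oxidation, 2 desaturation and 16 sterol synthesis and its control. The cells were group 2 innate lymphoid cells (ILC2) of the lung, tissue-resident lymphocytes that make type 2 cytokines. They came from c-Maf KO mice (5 libraries) and WT mice (5 libraries), which were C57BL/6 littermates housed together. All mice of both groups had received papain, a protease that sets off lung inflammation. Lineage-negative CD90.2+ cells, with or without ST2 and KLRG1, were sorted and their total RNA was sequenced. The labels give no allele, Cre driver or age. Nor do they say that the 5 libraries of a group come from 5 mice, so the p-values reflect a spread between libraries that may be technical. It is also not stated whether Maf was absent from all cells of the mouse, and an effect inside the ILC2 and an effect from other cells cannot be told apart.

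Cells take up fatty acids through CD36 and fatty acid transport proteins, trap them as acyl-CoA with ACSL enzymes, and store them as triglyceride in lipid droplets, where the DGAT enzymes perform the last step and perilipins coat the droplet. Oxidation runs in mitochondria after CPT1 and CPT2 carry the acyl chain across, and desaturases turn saturated chains into monounsaturated ones. Sterols are built from acetyl-CoA through mevalonate, squalene and lanosterol, under the transcription factor SREBP2 (gene Srebf2), which INSIG proteins hold back when sterols are plentiful. In lung ILC2, PPAR-gamma and DGAT1 are known from earlier mouse work to promote uptake and droplet storage of outside fatty acids during allergen-driven inflammation.

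The KO libraries were shallow and sparse, which bears on every value below. They held 3620002 to 9867580 counts, against 21400938 to 24489987 in WT libraries. Of the 7490 genes that passed the filter on low counts and were tested, 18.0% to 45.4% had more than 3 counts in a given KO library, against 96.5% to 99.3% in a WT library. A gene with at most 3 counts in a library is called missing there. Levels are given as counts per 1000000 after scaling by TMM, edgeR's normalization factor (CPM below). In KO library 1, 1 count equals 1.18 CPM. The TMM factors were 0.180 to 0.928 in KO libraries and 1.46 to 1.91 in WT libraries, so the scaling raises KO values against WT values. Wherever a KO library is placed above or below WT libraries, TMM-scaled values are meant. By total counts alone, some of these placements differ. Maf itself had 0, 0, 0, 108 and 0 counts in KO libraries 1 to 5, against 3252, 3832, 1412, 1696 and 2727 in WT libraries 1 to 5. Its log2 fold change was −4.34 (SE 2.06, edgeR quasi-likelihood test, Benjamini-Hochberg adjusted p = 0.141), so the targeted gene itself missed the edgeR threshold, while the exact permutation test gave an adjusted p of 0.0268. All 13 ILC2 markers had more than 3 counts in at least 1 library of each group, and 0 of 13 passed the edgeR test, with 2 higher in KO at an unadjusted p under 0.05, while the exact permutation test called 2 of 13 lower. Of other cell types' markers, more than 3 counts in some KO and some WT library were found for 3 and 5 of 10 of type 2 alveolar epithelium, 5 and 3 of 10 of endothelium, 2 and 3 of 6 of T cells, 3 and 4 of 6 of B cells, and 2 and 3 of 7 of granulocytes. Erythroid genes, 7 of 8 found in some KO library and 5 of 8 in some WT library, were in sum higher in every KO library than in any WT library. They took 19.0%, 0.0203%, 0.0759%, 0.0417% and 0.0120% of counts in KO libraries 1 to 5, against 0.000910% to 0.00250% in WT libraries, and 5 of 5 tested rose (edgeR adjusted p at 0.05). Their part in the results below was not tested. Fewer cells of a type and less RNA per cell cannot be told apart in such bulk libraries.

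Among the genes tested, the data showed losses in KO cells and no gain that passed the test. The filter on low counts bears on this direction. The 5 genes that fell, named next, were over it in 0 KO and 5 WT libraries, so they entered the test through WT alone. A gene seen in a few KO libraries alone could not enter. Ppargc1a, with 185 counts in KO libraries and 1 in WT libraries, failed the filter and was called higher without it (edgeR adjusted p = 0.00927). Of 25 genes tested, 5 fell in KO cells: Acadm and Acadvl of oxidation, Scd2 of desaturation, and Sqle and Stard4 of sterol synthesis and transport. The remaining 20 did not pass in either direction (edgeR adjusted p at 0.05). Among all tested genes 27.1% were lower and 1.5% higher in KO, so 5 of 25 is near the background. Without KO libraries 1 and 5, 9 of 33 members tested were lower, beside 33.4% of 9854 genes. An exact two-sided permutation test on log2(CPM + 1), adjusted over all 7490 genes, called 8 of the 25 lower, the same 5 with Cpt1a, Hadhb and Dhcr7, against 32.2% of all tested genes. It called 0 higher, against 0.975%, and in edgeR, 0 of 25 were higher and 8 lower at an unadjusted p under 0.05, beside 4.59% and 30.9% of all tested genes. DESeq2 and voom also called 0 of the 25 higher. The smallest p that the exact permutation test allows with 5 against 5 libraries is 0.00794, which became 0.0268 after adjustment here. In 7 of 25 genes every KO library lay below every WT library (28.9% of all tested genes), and in 0 of 25 every KO library lay above (0.774%). The median log2 fold change of the 25 genes was 0.18, with 12 below 0 and 13 above, beside −0.47 over all tested genes.

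By role, the 6 tested uptake and storage genes had a median log2 fold change of 0.46 and the 12 sterol genes 0.41. The 6 oxidation genes had −4.34, or −4.17 with the genes at 0 in every KO library set to their bounds, and Scd2, the tested desaturase, had 1 count in KO libraries in all. The difference between roles was not tested. Directions of genes that did not pass depend on the scaling: with library size alone the median of all tested genes moves by −1.23, and with limma voom by −2.04. Of the 15 genes not tested, 12 had some counts, while Fabp4, Mvd and Fdps were at 0 in all 10 libraries. Mvd has 100% of its exon bases inside another annotated gene and Fdps 79.6%, and such genes are uncertain here. Among protein-coding genes whose exon bases all lie in another gene, 94.4% of 1480 were at 0 in every library, against 35.1% of 14131 genes without overlap.

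**Figure D1:**
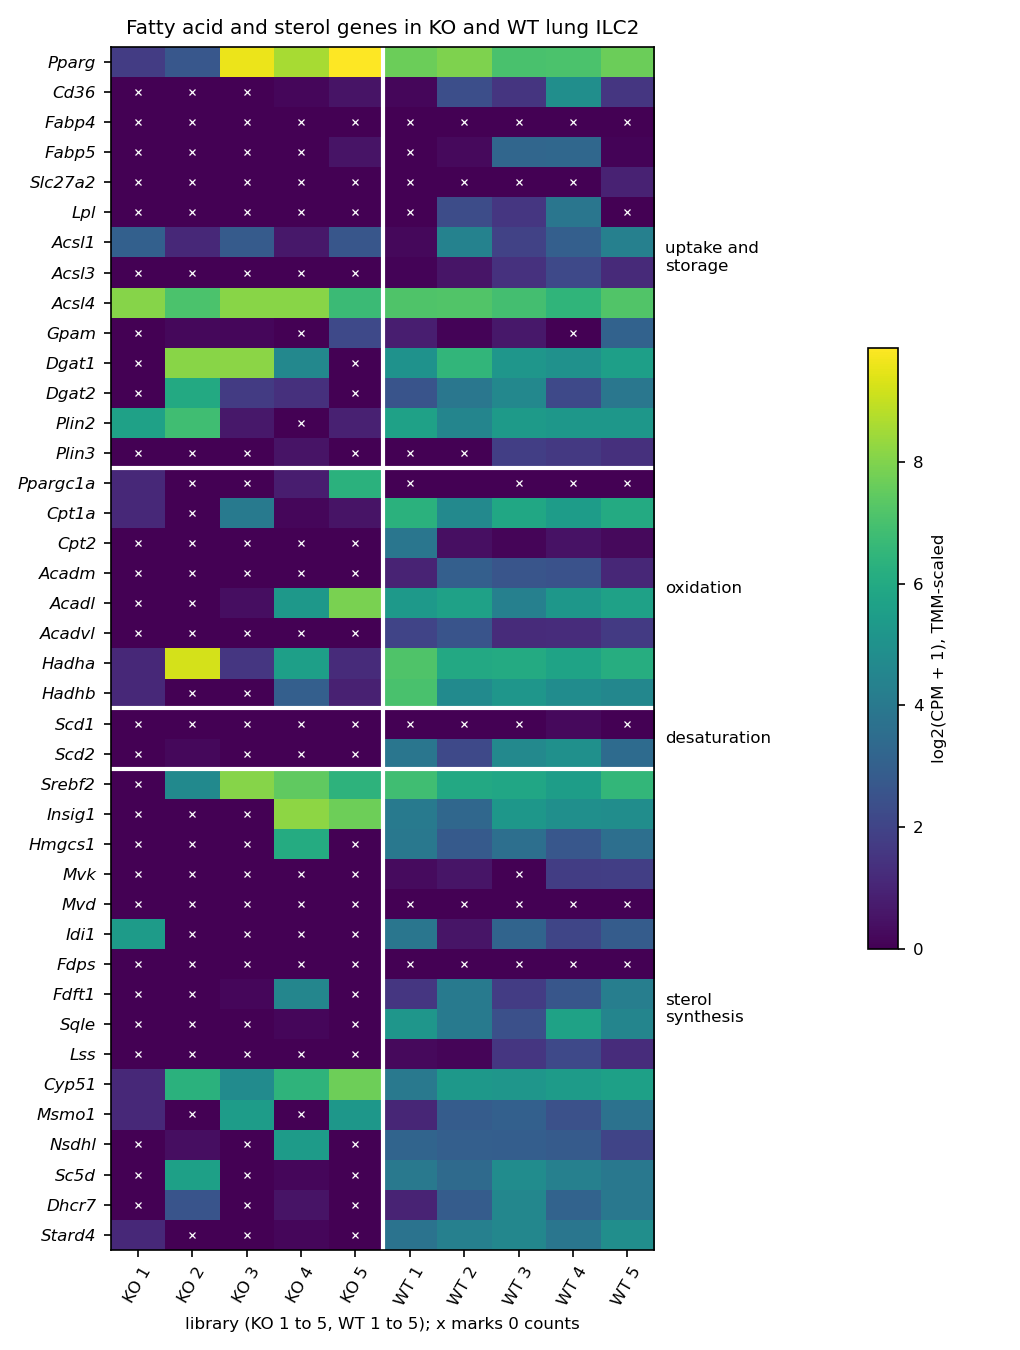
Level of each of the 40 genes (rows, grouped by role) in the 5 KO and 5 WT libraries (columns), as log2(CPM + 1) on a colour scale, with a cross where the library had 0 counts. KO libraries 1 to 5 held 28, 26, 26, 18 and 24 genes at 0, and WT libraries 1 to 5 held 9, 6, 7, 6 and 6.

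Of 6 tested uptake and storage genes, 0 passed in edgeR, 0 had an unadjusted p under 0.05 and 0 passed the exact permutation test. Pparg encodes PPAR-gamma, the nuclear receptor that drives lipid uptake and storage programmes. It had 2.35, 5.4, 758, 386 and 937 CPM in KO libraries 1 to 5, against 203, 251, 130, 135 and 202 CPM in WT libraries 1 to 5. KO libraries 3, 4 and 5 lay above every WT library and KO libraries 1 and 2 below every one. The log2 fold change was 1.18 (SE 1.40, edgeR adjusted p = 0.597), smaller than its error.

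Acsl4, which prefers arachidonic acid as it makes acyl-CoA, was well covered in every KO library. It had 273, 135, 279, 275 and 106 CPM in KO libraries 1 to 5, against 141, 144, 119, 86.6 and 146 CPM in WT libraries 1 to 5. On TMM-scaled values, KO libraries 1, 3 and 4 lay above every WT library, and the other KO libraries lay within the WT range. With library size alone the log2 fold change of Acsl4 was −0.69 (edgeR adjusted p = 0.749), so its direction depends on the scaling. The means were 213 ± 85.6 CPM in KO and 127 ± 25.2 CPM in WT (SD, n = 5 each), and the log2 fold change of 0.74 (SE 1.17) did not pass (edgeR adjusted p = 0.700). Acsl1, its relative that feeds both storage and oxidation, had 6, 8, 45, 4 and 12 counts in KO libraries, against 6, 895, 94, 316 and 827 counts in WT libraries. Its means were 4.05 ± 2.97 CPM in KO and 9.76 ± 9.15 CPM in WT (SD, n = 5 each), and the groups overlapped (log2 fold change −1.29, SE 1.23, edgeR adjusted p = 0.500). Acsl1 and Acsl4 were the genes of the 40 with more than 3 counts in every KO library, 2 of 25 tested against 7.06% of all tested genes.

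The triglyceride genes were present in some KO libraries and at 0 in others. Dgat1, which joins the last fatty acid to diacylglycerol, had 0, 277, 287, 23.4 and 0 CPM in KO libraries, against 31.5, 88.4, 35.1, 30.5 and 46.9 CPM in WT libraries. Dgat2, which performs the same step, had 0, 63.5, 2.33, 1.57 and 0 CPM in KO libraries, against 4.96, 13.9, 23.6, 3.47 and 13.9 CPM in WT libraries. KO libraries 1 and 5 had 0 counts of both genes, and KO library 2 was high for both. Without KO library 2, Dgat2 was called lower (log2 fold change −3.40, edgeR adjusted p = 0.0451), while with all libraries its value was 0.18 (SE 1.57, edgeR adjusted p = 0.953). Plin2, the droplet coat protein, had 49.4, 113, 0.548, 0 and 0.876 CPM in KO libraries, against 49.6, 21.3, 40.2, 36.1 and 36.3 CPM in WT libraries. KO library 2 was above every WT library and KO libraries 3 to 5 were below every one, so Plin2 and Pparg were high in different KO libraries.

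The remaining uptake genes were at the limit of detection. Lpl, the lipase that frees fatty acids from circulating triglyceride, and Acsl3 had 0 counts in all 5 KO libraries, with 864 and 292 counts over the 5 WT libraries. Taking 3 counts summed over the KO libraries as the floor, that is at least 34.4-fold lower for Lpl and at least 11.6-fold lower for Acsl3. These bounds pool the WT libraries. Lpl was also at 0 in WT libraries 1 and 5. WT library 4 held 72.5% of the WT counts of Lpl and 54.5% of those of Acsl3. Cd36, the fatty acid scavenger receptor, had 2 counts in KO libraries and 1636 in WT libraries, a WT over KO ratio of 97.6 (95% exact counting interval 27.0 to 807). Fabp5, a fatty acid carrier with near-identical processed copies in the mouse genome and so uncertain, had 1 count in KO libraries and 697 in WT libraries. Plin3 had 3 counts in KO libraries and 250 in WT libraries, Gpam 10 and 386, and Slc27a2 0 and 41. None of these 7 was tested, since fewer than 5 libraries held enough counts to pass the filter. With no filter, edgeR called Cd36, Lpl and Acsl3 lower (adjusted p = 0.0262, 0.0227 and 0.0410), and Cd36 was also lower in DESeq2 (adjusted p = 0.0119). With no filter 10 of 37 members with counts were lower, beside 15.9% of 19014 genes.

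Of these genes, 4 were highest in the WT library with the most macrophage RNA. The summed level of 14 alveolar macrophage markers was 36.5, 0.3, 0.685, 1.14 and 7.89 CPM in KO libraries 1 to 5, against 22.5, 213, 219, 1605 and 5.87 CPM in WT libraries 1 to 5. Of the 14 markers, 2 had more than 3 counts in some KO library and 9 in some WT library. Ear1, Ear2, Krt79 and Plet1 were at 0 in all 10. Chil3, a chitinase-like protein of alveolar macrophages, carried most of the sum in WT libraries 2 to 4, with 1.18, 0.3, 0.411, 0.285 and 3.94 CPM in KO libraries and 0.458, 133, 155, 1287 and 0.205 CPM in WT libraries. Cd36, Lpl, Fabp5 and Acsl3 each peaked in WT library 4, where the macrophage sum peaked, at 28.6, 13.8, 8.92 and 3.52 CPM. The others did not: Gpam (7.69 CPM) and Slc27a2 (0.933 CPM) peaked in WT library 5, with the lowest WT sum, and Plin3 (2.52 CPM) in WT library 3. The share of all genes that peaked in WT library 4 is not given here. Alveolar macrophages are known to express CD36, LPL and FABP5 strongly. The part of macrophage RNA in the KO and WT difference of any of these uptake and storage genes was not tested. The 5 adipocyte markers, Adipoq among them, were at 0 in all 10 libraries.

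**Figure D2:**
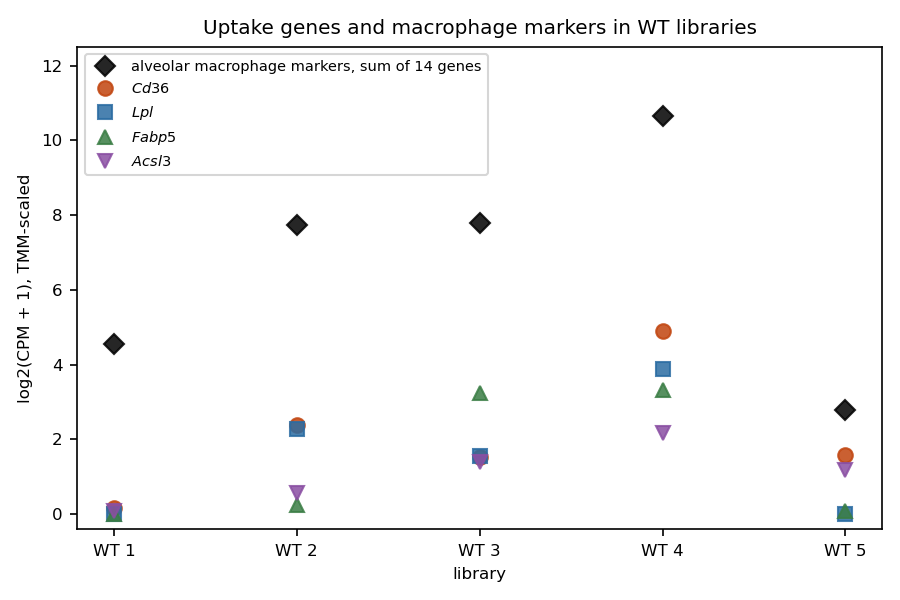
Level of Cd36, Lpl, Fabp5 and Acsl3 and the summed level of 14 alveolar macrophage markers in WT libraries 1 to 5, as log2(CPM + 1) of TMM-scaled values, 1 symbol per gene. All 5 quantities are highest in WT library 4, where the marker sum was 1605 CPM. WT libraries 1 and 5, with sums of 22.5 and 5.87 CPM, hold less than 2 CPM of each gene. WT library 3, with a sum of 219 CPM, also holds less than 2 CPM of Cd36, Lpl and Acsl3. WT library 2, with a sum of 213 CPM, holds 0.179 CPM of Fabp5 and 0.469 CPM of Acsl3.

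Of 6 tested oxidation genes, Acadm and Acadvl fell in KO cells and 4 did not pass. Acadm, the medium-chain acyl-CoA dehydrogenase, had 0 counts in every KO library, against 1.0, 7.02, 5.14, 4.6 and 1.14 CPM in WT libraries 1 to 5. It was at least 30.9-fold lower in KO cells, set against 3 counts over the KO group (edgeR adjusted p = 0.00163). Acadvl, which starts oxidation of very long chains, also had 0 counts in every KO library, against 3.09, 4.89, 1.35, 1.37 and 2.21 CPM in WT libraries. It was at least 21.1-fold lower (edgeR adjusted p = 0.00163), though 46.5% of its exon bases lie in other genes. Both are among the least abundant tested genes. Of all 1264 tested genes under 5 CPM in WT, 31.3% were missing in all 5 KO libraries.

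Cpt1a, the gatekeeper of mitochondrial entry, passed the permutation test but not edgeR. It had 1.18, 0, 15.5, 0.143 and 0.438 CPM in KO libraries, against 78.6, 24.2, 57.7, 43.4 and 64.8 CPM in WT libraries, and every KO library lay below every WT library. Its log2 fold change of −3.94 (SE 1.81) had an edgeR adjusted p of 0.127 and an exact permutation adjusted p of 0.0268. KO library 3 held most of its 116 KO counts, and without that library edgeR gave −6.94 (adjusted p = 0.0112). Cpt1a was the member missing in 4 KO libraries among the 3 members at 50 to 100 CPM in WT, a level at which 10.8% of 837 tested genes were missing in 4 or 5 KO libraries. Cpt2, its inner-membrane partner, had 0 counts in KO libraries and 527 in WT libraries, 13.8 CPM of it in WT library 1 and below 0.4 CPM in the other WT libraries, and was not tested. With no filter edgeR called it lower (adjusted p = 0.0242).

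The trifunctional protein, which carries out the last steps of long-chain oxidation, is made of an alpha subunit (Hadha) and a beta subunit (Hadhb) that are needed together. The genes lie head to head on chromosome 5, Hadha on the minus strand (30118304 to 30155162) and Hadhb on the plus strand (30155248 to 30184593, GRCm38, GENCODE M21). Only 85 bases separate their annotated starts, given here in capitals within the RefSeq GRCm38.p6 window from 250 bases before to 50 bases after the start of Hadhb, since the subunits start on either side of this stretch.
Hadhb, chr5:30155003-30155302, plus strand: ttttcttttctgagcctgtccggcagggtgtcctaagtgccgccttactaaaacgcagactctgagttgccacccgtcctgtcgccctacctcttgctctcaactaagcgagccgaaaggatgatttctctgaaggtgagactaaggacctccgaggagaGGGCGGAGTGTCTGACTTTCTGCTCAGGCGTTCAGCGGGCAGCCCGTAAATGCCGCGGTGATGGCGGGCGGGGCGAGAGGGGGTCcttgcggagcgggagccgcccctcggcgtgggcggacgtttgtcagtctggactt
Hadha had 1.18, 595, 1.92, 46.2 and 1.31 CPM in KO libraries 1 to 5, against 143, 61.2, 64.2, 51.4 and 69.7 CPM in WT libraries. Hadhb had 1.18, 0, 0, 6.84 and 0.876 CPM in KO libraries, against 132, 25.7, 35.1, 27.2 and 22.9 CPM in WT libraries. KO library 2 had 3966 counts of Hadha and 0 of Hadhb, a Hadha over Hadhb ratio of at least 1322 with 3 counts as the floor. KO library 4 had a ratio of 6.75, and the WT libraries lay between 1.08 and 3.04. Every KO library lay below every WT library for Hadhb, and KO library 2 lay above all of them for Hadha. Hadhb had a log2 fold change of −4.74 (SE 1.88, edgeR adjusted p = 0.0719) and passed the exact permutation test (adjusted p = 0.0268), while Hadha had 0.73 (SE 1.67, edgeR adjusted p = 0.799).

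Acadl, the long-chain dehydrogenase, had 0, 0, 0.274, 37.5 and 235 CPM in KO libraries, against 38.2, 48.6, 18.7, 36.9 and 49.8 CPM in WT libraries. KO libraries 1 to 3 lay below every WT library, KO library 4 lay among them and KO library 5 above them. Its log2 fold change was 0.51 (SE 1.85, edgeR adjusted p = 0.879). Ppargc1a, the PGC-1 alpha coactivator of mitochondrial genes, had 1, 0, 0, 5 and 179 counts in KO libraries 1 to 5, against 0, 1, 0, 0 and 0 counts in WT libraries. KO library 5, the shallowest, held 179 of its 185 KO counts, and the gene failed the filter on low counts. Without that filter it was called higher in KO (edgeR adjusted p = 0.00927).

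Desaturation rested on Scd2, the stearoyl-CoA desaturase found in many tissues. It had 1 count in all KO libraries together, in KO library 2, against 13.7, 3.55, 24.1, 30.0 and 9.81 CPM in WT libraries 1 to 5. The WT over KO ratio was 385, with an exact 95% counting interval of 69.1 to 15214, and every KO library lay below every WT library (edgeR adjusted p = 0.00163). Scd1, its close relative and the main liver form, had 0 counts in KO libraries and 9 in WT libraries, all in WT library 4. Scd2 had more than 3 counts in all 5 WT libraries and Scd1 in 1.

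**Figure D3:**
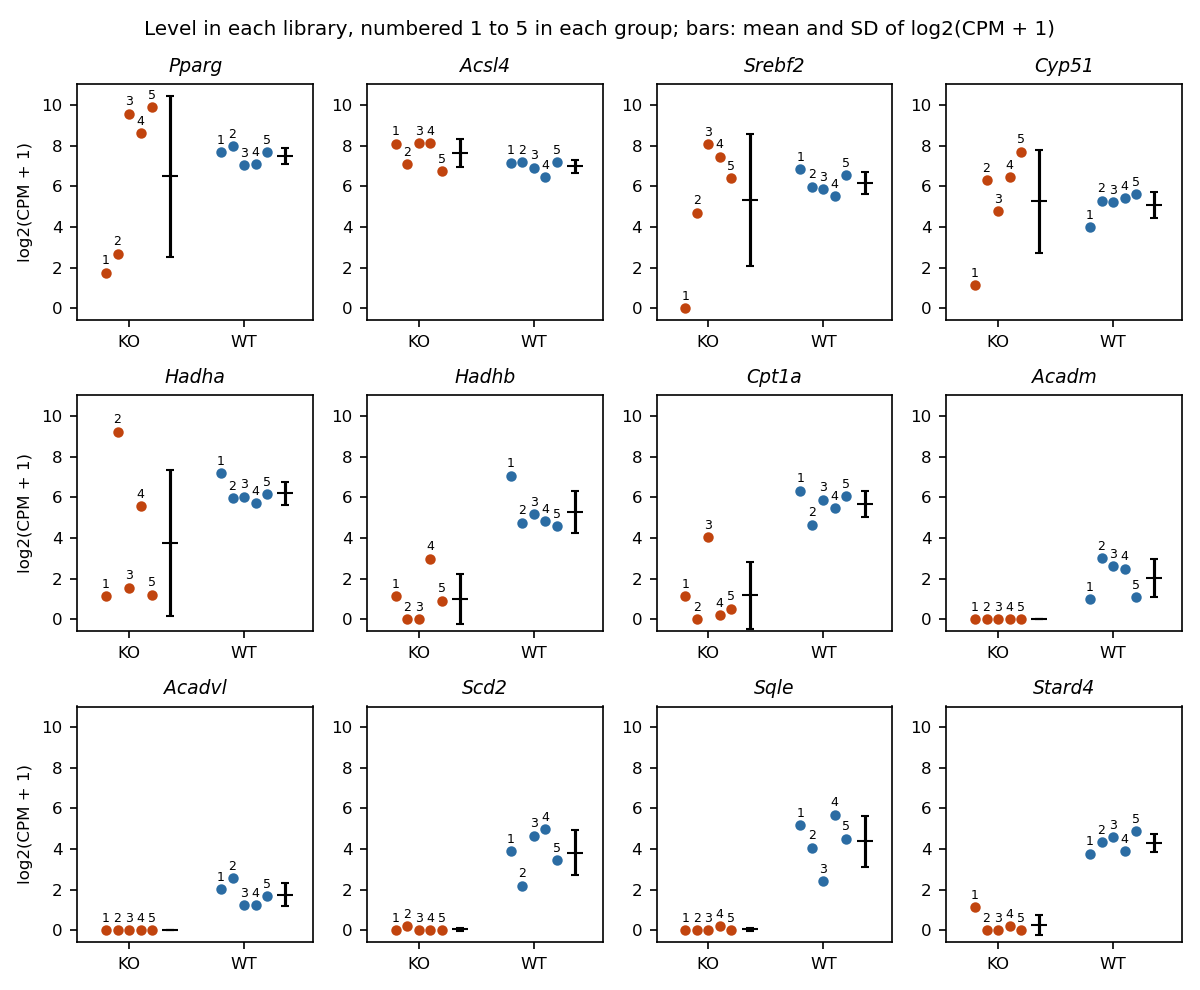
Level of 12 of the 40 genes in each library, as log2(CPM + 1), with KO left of WT in each panel, 1 point per library labelled by its number, and bars for the mean and SD of the log values (n = 5 each). Acadm and Acadvl are at 0 in all KO libraries, Hadha and Hadhb part in KO library 2, and Pparg is above the WT points in KO libraries 3 to 5 and below them in 1 and 2.

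Sterol genes were found in similar numbers in each WT library, at levels that varied, and were scattered in KO libraries. Of the 16 genes, 13 or 14 had more than 3 counts in each WT library, while KO libraries 1 to 5 had 1, 4, 3, 6 and 4. Their summed level was 45.9, 157, 339, 681 and 531 CPM in KO libraries, against 247, 194, 244, 236 and 300 CPM in WT libraries. On this TMM-scaled sum, KO libraries 1 and 2 lay below every WT library and KO libraries 3 to 5 above every one. Sqle and Stard4 fell, 0 rose and 10 of 12 tested genes did not pass.

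Promoters are shown for sterol genes found in differing numbers of KO libraries: Hmgcs1, found in 1, Insig1, found in 2, and Cyp51, found in 4. They were taken from RefSeq (GRCm38.p6, 250 bases before to 50 after the start, read along the strand of the gene). Capitals mark a CCAAT box (CCAAT, or ATTGG on the other strand), a sterol regulatory element (TCACNCCAC) or a MAF motif (TGCTGAC), searched on both strands.
Hmgcs1, chr13:119690101-119690400, plus strand: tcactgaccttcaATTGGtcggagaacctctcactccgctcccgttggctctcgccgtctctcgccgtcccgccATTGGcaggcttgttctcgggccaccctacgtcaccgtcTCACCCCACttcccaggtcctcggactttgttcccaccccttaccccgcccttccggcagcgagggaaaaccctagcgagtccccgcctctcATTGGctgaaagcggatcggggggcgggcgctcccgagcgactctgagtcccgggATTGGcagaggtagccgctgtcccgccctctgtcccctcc
Insig1, chr5:28071162-28071461, plus strand: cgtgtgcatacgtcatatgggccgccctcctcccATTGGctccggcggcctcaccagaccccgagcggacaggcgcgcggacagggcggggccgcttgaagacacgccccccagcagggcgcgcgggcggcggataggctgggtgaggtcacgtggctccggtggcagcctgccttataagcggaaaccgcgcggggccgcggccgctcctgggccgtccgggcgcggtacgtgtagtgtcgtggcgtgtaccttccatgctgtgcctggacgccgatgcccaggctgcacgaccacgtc
Cyp51, chr5:4104648-4104947, minus strand: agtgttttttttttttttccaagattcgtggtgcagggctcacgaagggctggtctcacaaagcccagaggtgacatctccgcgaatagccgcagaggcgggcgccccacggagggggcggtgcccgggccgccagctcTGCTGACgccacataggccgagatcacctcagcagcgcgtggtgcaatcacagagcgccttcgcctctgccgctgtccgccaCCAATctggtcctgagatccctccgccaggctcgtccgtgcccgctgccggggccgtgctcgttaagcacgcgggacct
A window was found for 29 of the 40 genes. Among the sterol genes, Sqle and Stard4, which fell in KO cells, and Fdft1 and Fdps had no window. Of genes with a window, a CCAAT box lay in 12 of 12 sterol genes, 7 of 9 uptake and storage genes and 1 of 8 oxidation genes (Cpt1a), against 41.1% of 27025 genes. In the spelling searched (TCACNCCAC), a sterol regulatory element lay in Hmgcs1, 137 bases before the start, and in Acsl1, against 1.44% of genes. Other spellings of this element were not searched. The MAF motif lay in Cyp51 alone, 111 bases before the start, against 5.28% of genes. A PPAR direct repeat (AGGTCA, any base, AGGTCA) lay in 0 of 29, against 0.0481% of genes. These matches are letters in a window and not binding sites. Sterol genes with the box in the window had more than 3 counts in 0 KO libraries (Lss, Mvk, Mvd), 1 (Hmgcs1, Idi1, Nsdhl, Sc5d, Dhcr7), 2 (Insig1, Msmo1) or 4 (Cyp51, Srebf2). Mvd was at 0 in WT libraries too.

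The regulators were found at more than 3 counts in 4 KO libraries (Srebf2) and 2 (Insig1). Srebf2 had 0, 25.1, 270, 174 and 83.2 CPM in KO libraries 1 to 5, against 114, 61.6, 57.2, 44.2 and 91.7 CPM in WT libraries. KO libraries 3 and 4 lay above every WT library and KO libraries 1 and 2 below (log2 fold change 0.59, SE 1.5, edgeR adjusted p = 0.822). Insig1, itself an SREBP target that closes the feedback loop, had 0, 0, 0, 290 and 205 CPM in KO libraries, against 15.1, 8.96, 36.6, 29.4 and 27.6 CPM in WT libraries. KO libraries 4 and 5 lay far above every WT library and the other KO libraries were at 0, and the log2 fold change of 2.07 (SE 2.03) did not pass (edgeR adjusted p = 0.513). In KO library 3, Srebf2 was at its highest while Insig1 was at 0.

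In the steps up to squalene, each enzyme was seen in at most 1 KO library. Hmgcs1, the HMG-CoA synthase, had 0, 0, 0, 65.9 and 0 CPM in KO libraries, against 14.4, 5.99, 11.2, 5.46 and 11.1 CPM in WT libraries. Idi1, the isopentenyl diphosphate isomerase, had all 36 of its KO counts in KO library 1, against 0.469 to 13.6 CPM in WT libraries. Fdft1, the squalene synthase, had 0, 0, 0.137, 22.0 and 0 CPM in KO libraries, against 1.95, 15.2, 2.4, 5.2 and 17.5 CPM in WT libraries. On TMM-scaled values, for all 3 the single high KO library exceeded every WT library and the others lay below every WT library. Each is called lower once that library is left out, at log2 fold changes of −10.87 for Hmgcs1 without KO library 4, −10.30 for Idi1 without KO library 1 and −7.10 for Fdft1 without KO library 4 (edgeR adjusted p = 0.00525, 0.00615 and 0.00559). Of Hmgcs1's exon bases 46.6% lie in another gene. Mvk, the mevalonate kinase, had 0 counts in KO libraries and 254 in WT libraries, at least 10.1-fold lower, and was not tested.

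Sqle and Stard4 were the sterol genes that fell in KO cells. Sqle, the squalene epoxidase and a rate-limiting step, had 0, 0, 0, 0.143 and 0 CPM in KO libraries, against 35.2, 15.6, 4.29, 50.3 and 21.6 CPM in WT libraries. It had 1 count in KO libraries and 5290 in WT libraries, a WT over KO ratio of 631 with an exact 95% counting interval of 113 to 24937 (edgeR adjusted p = 0.00163). Lss, the next enzyme, which closes the ring to lanosterol, had 0 counts in KO libraries and 298 in WT libraries, at least 11.9-fold lower. It was not tested (with no filter, edgeR adjusted p = 0.0403), and 68.5% of its exon bases lie in another gene. Stard4, a carrier that moves cholesterol between membranes, had 2 counts in KO libraries and 12.6, 18.9, 22.9, 13.8 and 28.2 CPM in WT libraries. The WT over KO ratio was 234, with an exact interval of 64.6 to 1929 (edgeR adjusted p = 0.00411). The KO and WT libraries of Sqle and Stard4 did not overlap.

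After lanosterol the pattern changed from enzyme to enzyme. Cyp51, the lanosterol demethylase, had 1.18, 78.2, 26.0, 85.5 and 205 CPM in KO libraries, against 14.8, 37.9, 35.9, 41.5 and 47.6 CPM in WT libraries, with KO libraries 2, 4 and 5 above every WT library (log2 fold change 1.16, SE 1.44, edgeR adjusted p = 0.617). Msmo1, the next demethylation enzyme, had 1.18, 0, 43.1, 0 and 36.8 CPM in KO libraries, against 1.06, 6.33, 7.15, 4.51 and 12.3 CPM in WT libraries. Nsdhl, which acts beside it, had 0, 0.3, 0, 42.3 and 0 CPM in KO libraries, against 8.16, 6.95, 6.67, 6.08 and 3.05 CPM in WT libraries. Msmo1 was thus at 0 in KO library 4, where Nsdhl was high, and Nsdhl was at 0 in KO libraries 3 and 5, where Msmo1 was high. Both products act in the same demethylation of the sterol ring, and WT libraries held both in every case.

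The last enzymes followed the same sparse form. Sc5d, the lathosterol oxidase, had 0, 48.5, 0, 0.143 and 0 CPM in KO libraries, against 14.8, 9.57, 26.6, 18.9 and 14.7 CPM in WT libraries. Dhcr7, which makes cholesterol in the final step, had 0, 4.95, 0, 0.428 and 0 CPM in KO libraries, against 1.0, 6.24, 22.8, 7.81 and 14.7 CPM in WT libraries. KO library 2 held the highest KO value of both. Dhcr7 passed the exact permutation test (adjusted p = 0.0478) with a log2 fold change of −3.16 (SE 1.45, edgeR adjusted p = 0.125), and without KO library 2 edgeR called both, Sc5d at −8.13 (adjusted p = 0.00598) and Dhcr7 at −6.02 (adjusted p = 0.00943).

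Single libraries carried many of the KO values. Of 20 tested members with more than 3 KO counts in all, 11 had at least 90% of them in 1 library, beside 49.3% of all such tested genes. Of the 20 tested members that did not pass with all libraries, 9 were called lower once 1 KO library was left out (Dgat2, Cpt1a, Hadhb, Idi1, Fdft1, Nsdhl, Hmgcs1, Sc5d and Dhcr7), beside 39.9% of the 5463 such genes in general. Cd36 and Acsl3, not tested with all libraries, were over the filter in 0 KO and 4 WT libraries. They passed it once any 1 KO library was left out, through WT alone. Both were called lower in each of these 5 fits (edgeR adjusted p = 0.0118 to 0.0290 for Cd36 and 0.0216 to 0.0338 for Acsl3). The fits share libraries, and the genes had 2 and 0 counts in KO libraries, so these calls are not separate support. Of the 25 tested members, 13 were missing in 4 or 5 KO libraries, against 51.2% of all tested genes, and 5 were missing in all 5, against 22.3%. KO libraries 1 to 5 held 4, 11, 11, 14 and 8 of the 25 at more than 3 counts, beside 18.0%, 36.4%, 45.4%, 44.9% and 35.0% of all tested genes. Detection in KO libraries was thus near that of genes in general. Across the 25 members the number of KO libraries where a gene was missing had a Spearman correlation of −0.53 with its WT level and −0.53 with its genomic span, a description of genes from the same libraries. Scd2, Sqle and Stard4 stood at 16.2, 25.4 and 19.3 CPM in WT and were missing in all 5 KO libraries. At 5 to 20 CPM in WT that held for 34.5% of all tested genes, and at 20 to 50 CPM for 13.1%.

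**Figure D4:**
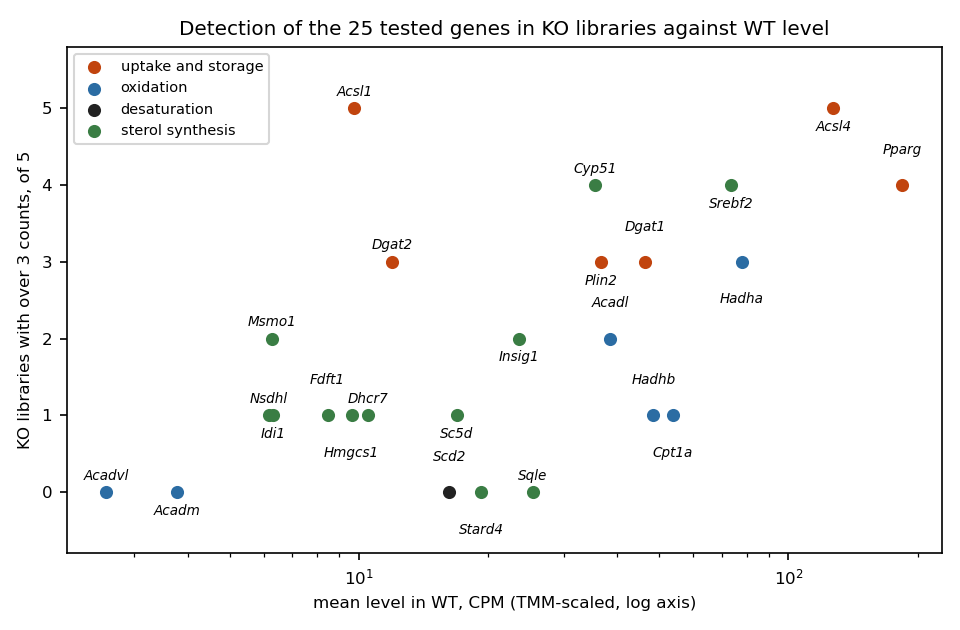
Number of KO libraries, of 5, with more than 3 counts (vertical axis) against the mean WT level in CPM (TMM-scaled, log axis) for the 25 tested genes, coloured by role. Acsl4 and Acsl1 are found in all 5 KO libraries, while Sqle, at 25.4 CPM in WT, and Cpt1a, at 53.7 CPM, are found in 0 and 1.

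In WT ILC2 the order of the 40 genes depended on the length used. Per kb of exon, Pparg stood at 62.4 ± 17.3 CPM (SD, n = 5), and its lowest WT library exceeded the highest of Acsl4, at 26.9 CPM per kb. Acsl4 (23.6 ± 4.66 CPM per kb), Acadl (19.2) and Dgat1 (15.2) followed and overlapped between libraries. Plin2 (10.4), Srebf2 (10.3), Hadha (8.91), Cyp51 (8.04), Insig1 (7.61), Hadhb (7.35) and Cpt1a (7.03) came next on the same scale. Per kb of genomic span, Dgat1 ranked 1, Insig1 2, Hadha 3, Acsl4 4 and Pparg 9. The counting feature is not given in the sources used here, so neither scale is preferred.

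The wider pathway was read from 89 further genes in 4 lists. Of 52 tested, 29 fell in KO, 0 rose (0 also at an unadjusted p under 0.05 and in the exact permutation test) and 23 did not pass (edgeR adjusted p at 0.05), with a median log2 fold change of −4.61, beside 27.1% lower and a median of −0.47 over all tested genes. Of the 52, 39 were missing in 4 or 5 KO libraries and 21 in all 5, beside 51.2% and 22.3% of all tested genes. At 5 to 20 CPM in WT, 72.6% of all tested genes were missing in 4 or 5 KO libraries. The lists were not matched to other genes by WT level. Genes below with 0 or 1 KO counts entered the test through WT alone. The difference between the 25 members and these genes was not tested. Uptake and storage had 7 of 13 lower, among them Gpat4, the first acylation step of glycerolipid synthesis, with 1 count in KO libraries and 2786 in WT libraries. Pnpla2, the triglyceride lipase of lipid droplets, had 8 and 5315 (log2 fold change −6.54, SE 1.70, edgeR adjusted p = 0.00619). Agpat5 and Acsl5 had 1 count each in KO libraries and 1646 and 1501 in WT libraries. Oxidation had 9 of 14 lower, led by Decr1 (0 counts in KO libraries and 1331 in WT libraries), Etfdh (1 and 4046), Hadh (1 and 5139) and Eci2 (0 and 908).

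Fatty acid synthesis had 5 of 9 lower. Fasn, the fatty acid synthase, had 1.18, 0, 0.137, 0.143 and 0.438 CPM in KO libraries, against 49.3, 38.3, 50.8, 30.8 and 76.4 CPM in WT libraries (log2 fold change −7.40, SE 1.88, edgeR adjusted p = 0.00525), with no overlap. Srebf1, whose SREBP1 product drives fatty acid synthesis genes, had 2 counts in KO libraries, against 46.2, 29.9, 11.7, 21.8 and 83.8 CPM in WT libraries (edgeR adjusted p = 0.00247). Its WT over KO ratio was 478, with an exact interval of 132 to 3946. Elovl1 had 1 count in KO libraries and 2418 in WT libraries, while Acss2 and Elovl6 had 0 in KO libraries and 1050 and 932 in WT libraries. Srebf2, by comparison, held 3549 counts in KO libraries and 14656 in WT libraries. Sterol synthesis and control had 8 of 16 lower, with Mbtps2, a protease that releases SREBPs, at 1 count in KO libraries and 3353 in WT libraries. Insig2 had 1 and 1303, Npc1, which moves cholesterol out of lysosomes, 1 and 2153, and Mylip, a ubiquitin ligase, 0 and 1664.

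Among other lipid regulators, Abca1 and Ppard were tested and did not pass (edgeR adjusted p = 0.971 and 0.689). Abca1, the cholesterol exporter, had 218 counts in KO libraries, all in library 4. For Ppard, KO library 5 held 91 of 94. Ppara was not tested, with 446 counts in KO library 3, 22 in KO library 4 and 1 in all WT libraries.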

How the data were processed

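Whole-number read counts per gene, as deposited by the authors, were used without change for 10 libraries of sorted lung ILC2 (5 KO, 5 WT). STAR 2.6.0c, SAMtools 1.8, HTSeq 0.9.1 and build GRCm38 are named in the submitters' processing notes, and the library kit keeps strand, per the labels' protocols. Which annotation release, strand setting and filters they used is not given in the sources used here. Libraries were grouped by genotype and numbered in order of deposit, and numbers pair nothing.

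Genes were kept by filterByExpr (minimum count 10), scaled by TMM and compared with edgeR 4.0.16 (quasi-likelihood test, R 4.3.3), with Benjamini-Hochberg adjustment over 7490 genes and a threshold of 0.05. The exact permutation test used log2(CPM + 1). Symbols and positions came from GENCODE M21, which matched 54809 identifiers. Of the 25 members that passed the filter, 24 passed it in all 5 WT libraries and 1 in all 5 KO libraries. Counting intervals (95%) and floors of 3 counts cover counting error only.

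The members and gene lists were chosen with earlier results of these data known. Named genes are the 40 members, the up to 4 genes of each pathway list with the smallest p among those past the threshold, Srebf1, Fasn, Abca1, Ppara, Ppard and Maf; some results under this rule are not reported here. Chil3 and Adipoq, from the marker lists, were named after their values were seen. Alternatives were RLE factors, library size alone, DESeq2 1.42.0, limma voom 3.58.1, other filters, thinning to 3620002 counts, no globin or mitochondrial genes, and leaving out libraries. The model was tested on simulated counts.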

Additional observations from a re-analysis of the deposited data

Results flagged for a closer look

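In 22 of 65 groups of 5 libraries with counts, the highest or lowest library stood apart from the other 4 by Dixon's test on log2(CPM + 1). Chance gives about 1 in 20 for normally distributed values, which these are not: 6 of the 15 KO groups and 3 of the 7 WT groups have counts in 1 library alone and pass by construction. Over all genes with counts, 59.2% of KO groups and 31.0% of WT groups stood apart in the same way, beside 53.6% and 18.9% of members.

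In KO library 1 the high values were Idi1 at 42.4 CPM and Stard4 at 1.18 CPM, which is a single count. In KO library 2 they were Dgat2 at 63.5 CPM, Sc5d at 48.5 CPM, Dhcr7 at 4.95 CPM and Scd2 at 0.15 CPM, and in KO library 3 Cpt1a at 15.5 CPM. In KO library 4 they were Hmgcs1 at 65.9 CPM, Nsdhl at 42.3 CPM, Fdft1 at 22.0 CPM, Plin3 at 0.428 CPM and Sqle at 0.143 CPM. In KO library 5 they were Ppargc1a at 78.4 CPM, Gpam at 3.5 CPM and Fabp5 at 0.438 CPM.

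Among WT groups, library 1 was high for Hadhb at 132 CPM and Cpt2 at 13.8 CPM and low for Cyp51 at 14.8 CPM. WT library 5 was high for Gpam at 7.69 CPM and Slc27a2 at 0.933 CPM, WT library 4 for Scd1 at 0.199 CPM and WT library 2 for Ppargc1a at 0.0224 CPM. Values under 1 CPM rest on few counts.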

How the results depend on the processing

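The calls on Acadm, Acadvl, Scd2, Sqle and Stard4 held under every alternative in which each was tested: 17 for Acadm and Acadvl, which the thinned counts and the filter on mean CPM left out, and 19 for the other 3. The count of members lower, 5, became 10 without a filter, 3 with thinned counts, 9 without KO libraries 1 and 5, and 5 to 11 when 1 library was left out. The count of members higher, 0, became 1 (Ppargc1a) without a filter and with the filter on a mean of 5 CPM. Over all genes, 2027 lower became 1256 with thinned counts, 3291 without KO libraries 1 and 5 and 1734 to 3350 with 1 library left out. The 112 higher became 193 with RLE factors, 49 with library size alone, 1470 with DESeq2, 71 with voom, 2345 without a filter, 648 with the mean filter, 49 with thinned counts, 348 without KO libraries 1 and 5, and 82 to 333 with 1 library left out. Lower calls were 94.8% of calls, but 63.4% with DESeq2, 56.3% without a filter and 71.9% with the mean filter.

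Members that did not pass changed sign in 30 cases outside the left-out single libraries. With voom the log2 fold changes were −1.05 for Pparg, −3.42 for Dgat1, −2.55 for Dgat2, −3.52 for Acadl, −3.63 for Hadha, −1.54 for Srebf2, −2.62 for Insig1, −4.06 for Hmgcs1, −3.64 for Idi1, −0.31 for Cyp51, −1.28 for Msmo1 and −3.14 for Nsdhl. With library size alone they were −0.69 for Acsl4, −1.02 for Dgat2, −0.82 for Acadl, −0.44 for Hadha, −0.47 for Srebf2, −0.75 for Hmgcs1, −2.76 for Idi1, −0.13 for Cyp51 and −0.75 for Nsdhl. RLE gave 0.13 for Acsl1 and 1.15 for Plin2, DESeq2 0.022 and 1.07. Dgat2 was −0.16 without a filter and −0.088 with thinned counts. Without KO libraries 1 and 5, Plin2 was 0.015, Acadl −1.65 and Idi1 −10.46. With 1 library left out the range was −3.40 to 0.60 for Dgat2, −1.01 to 0.37 for Plin2, −2.02 to 1.23 for Acadl, −2.61 to 1.07 for Hadha, −10.87 to 0.78 for Hmgcs1, −10.30 to 1.35 for Idi1 and −5.74 to 0.79 for Nsdhl. The cause was not tested. Hadhb passed with library size alone, DESeq2 and voom. No paired analysis was possible because library numbers pair nothing. The KO depth sets a floor of 0.124 CPM (3 counts over the group).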
